A study of Mus musculus with 12 samples.

Results

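Genes through which bone-forming cells signal to osteoclasts, their precursors and blood vessels were followed in sorted mouse osteoblasts: *Tnfsf11*, *Tnfrsf11b*, *Csf1*, *Il34*, *Il6*, *Il11*, *Ccl2* and *Vegfa*. They were taken by gene name, and all 8 were found among the 32288 genes and transgenes counted. RNA of sorted mGFP+ cells from the metaphysis, the trabecular region below the growth plate of femur and tibia, was sequenced in bulk in 12 libraries. Juvenile *Osx*+ osteoblasts (3 weeks of age, n = 4) and adult *Osx*+ osteoblasts (8 weeks, n = 4) came from male *Osx-CreERT2; mTmG* mice, with 2 mice pooled for each replicate. *c-Myc*-induced osteoblasts (n = 2) also carried *LSL-tTA* and *Col1a1::TetO–c-Myc*, and *c-Myc* + *R172H* osteoblasts (n = 2) carried these and *Trp53-LSL-R172H*. The transgene, also described with an *IRES-mCherry* reporter, is of the tet-OFF type, which tetracycline-class drugs in drinking water kept silent before induction. These induced cells were taken 7 days after tamoxifen, from mice whose titles say 3 weeks and whose dissection notes say 5 weeks. The preparation notes give both sexes for these mice, while other notes of the paper say that RNA-seq used males. All 4 groups shared *Osx-CreERT2*, in which the recombinase sits in the *Osx* (*Sp7*) gene, the *mTmG* reporter, which turns recombined cells from tdTomato to membrane GFP, and tamoxifen, although juvenile and adult mice had another number of daily doses and a shorter wait before collection than induced mice. The shaft was trimmed about 2 mm below the growth plate in *Osx-CreERT2; mTmG* mice and about 5 mm in the induced mice. Genotype, age, the trimmed length, the tamoxifen schedule, the tetracycline-class drug and possibly sex therefore changed together between juvenile and induced libraries and cannot be told apart.

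*Tnfsf11* (chr14:78277445-78308043, GRCm38) encodes RANKL, the cytokine that drives osteoclast differentiation, and *Tnfrsf11b* (chr15:54250619-54278484) encodes osteoprotegerin, a secreted decoy that binds RANKL and keeps it from its receptor RANK. *Csf1* (M-CSF) and *Il34* encode alternative ligands of the CSF1 receptor, on which osteoclast precursors depend. *Il6* and *Il11* are cytokines that signal through gp130, *Ccl2* (MCP-1) attracts monocytes, and *Vegfa* is the main growth factor of blood vessels, which invade the metaphysis as bone is laid down.

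Depth ranged from 9066154 to 15684412 counts per library. Levels are given as CPM, counts relative to the size of the library, after TMM normalization, which scales libraries so that most genes do not shift, and 3 counts corresponded to 0.137 to 0.417 CPM. *Myc* was at 39.8 to 52.2 CPM in juvenile, 624 to 658 in *c-Myc* and 639 to 748 in *c-Myc* + *R172H* libraries. The *mTmG* reporter tdTomato, which unrecombined cells express, was at 0.70 to 8.68 CPM in juvenile and 1.72 to 7.12 in adult libraries. In *c-Myc* libraries it was at 32.8 to 34.5 CPM and in *c-Myc* + *R172H* libraries at 28.9 to 33.1. The GFP reporter was at 285 to 573, 293 to 354, 381 to 405 and 369 to 371 CPM in the same order. The *c-Myc* transgene also carries *mCherry*, and whether its reads were counted as tdTomato was not tested. The part of this tdTomato difference in the results was not tested either. The 3 most abundant entries took 35.2% to 65.3% of the counts of a library. Summed osteoblast markers were at 572052 to 840536 CPM in juvenile, 343661 to 619369 in adult, 100111 to 132578 in *c-Myc* and 56669 to 58603 in *c-Myc* + *R172H* libraries, and *Sp7* was detected throughout, at 119 to 246 CPM. Of 10 osteoblast markers, 10 were called lower in both induced groups against juvenile (median log2 -2.12 and -2.67), *Sp7* among them (-0.81 and -0.97). Of all genes 25% and 26.3% were called lower. On library totals alone 7 and 6 of the 10 were called lower and 0 and 1 higher, and *Sp7* (0.017 and 0.082) was not called. Markers of other cell types were present, and 12 chondrocyte genes summed to 8791 to 26268 CPM in juvenile, 34472 to 126023 in adult, 353 to 558 in *c-Myc* and 167 to 171 in *c-Myc* + *R172H* libraries. The 10 marrow stroma genes summed to 383 to 477, 461 to 730, 147 to 228 and 141 to 159 CPM in the same order. The 7 osteocyte markers summed to 426 to 774, 303 to 391, 169 to 189 and 99.8 to 122 CPM, and 5 of 5 tested were called lower in both induced groups against juvenile. The 10 osteoclast markers summed to 246 to 384, 293 to 510, 114 to 135 and 80.7 to 82.7 CPM, with *Calcr*, *Ocstamp* and *Dcstamp* at 0 in every library, while *Ctsk* fell from 134 CPM in juvenile to 17.0 with *c-Myc* and 17.7 with *c-Myc* + *R172H*. The 11 myeloid markers summed to 1.92 to 5.42, 9.72 to 13.9, 11.1 to 13.6 and 8.84 to 9.80 CPM. Only 1 of 4 tested, *Lyz2*, was called, higher in both induced groups than in juvenile (6.16 and 2.48 beside 0.34 CPM). The 10 endothelial markers summed to 0 to 1.81, 0 to 2.67, 7.31 to 8.79 and 7.51 to 8.44 CPM, where 2 of 3 tested genes, *Egfl7* among them (0.15 CPM in juvenile, 6.68 and 5.93 in the induced groups), were called higher in both. In juvenile libraries *Lyz2* held 7 counts at most and *Egfl7* 5. Both could be tested in the induced comparisons only through the counts of the induced libraries. The 6 erythroid markers reached 0.68 CPM at most. The part of these cell types in the results was not tested. In bulk RNA, fewer cells of a type and less RNA per cell cannot be told apart.

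*Tnfsf11* was lower and *Il11* higher in *c-Myc*-induced osteoblasts, as described further on, and the 250 bases before a RefSeq start of each (build GRCm38.p6) are shown because MYC is a DNA-binding factor. The *Il11* window lies at chr7:4778142-4778391 and the *Tnfsf11* window at chr14:78308044-78308293, both on the minus strand and outside annotated exons, and capitals mark a match to a searched motif.
Il11: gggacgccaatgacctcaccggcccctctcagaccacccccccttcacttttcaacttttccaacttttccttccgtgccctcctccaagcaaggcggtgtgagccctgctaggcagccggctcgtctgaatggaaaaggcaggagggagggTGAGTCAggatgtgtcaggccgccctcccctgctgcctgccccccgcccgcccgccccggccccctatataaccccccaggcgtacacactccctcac
Tnfsf11: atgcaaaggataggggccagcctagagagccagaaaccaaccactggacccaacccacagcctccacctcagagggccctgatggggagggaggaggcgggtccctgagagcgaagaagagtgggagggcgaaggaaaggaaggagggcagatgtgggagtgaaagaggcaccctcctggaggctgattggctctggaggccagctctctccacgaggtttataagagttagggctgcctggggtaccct
Motifs were searched on both strands as CACGTG (the E-box to which MYC binds), ACGTG (the core of the hypoxia response element, which overlaps the E-box), TGANTCA (AP-1), TGACGTCA (CRE) and TTCNNNGAA (STAT), and on the gene's strand as TATAAA. RefSeq gives *Il11* another start, whose window held no match and lay mostly within annotated exons, so that it is not shown. The capitals in *Il11* are an AP-1 match 98 bases before the start, a motif held by 6.75% of 32851 windows of the same length. None of the 7 windows of the 5 members with a window held CACGTG, which 6.02% of all windows hold. No window was at hand for *Tnfrsf11b*, *Il34* and *Ccl2*, so that these were not searched. These are matches of letters and not measured binding.

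Compared per kb of exon, the juvenile level was highest for *Vegfa* (10.8 ± 1.62 CPM per kb, SD, n = 4) and *Tnfrsf11b* (10.3 ± 3.82), followed by *Csf1* (8.28 ± 0.50) and *Tnfsf11* (3.70 ± 0.35). *Il34*, *Il11* and *Ccl2* were at 0.23, 0.21 and 0.14 CPM per kb, and *Il6* was at 0. In *c-Myc* + *R172H* osteoblasts this order differed, with *Vegfa* at 10.9, *Csf1* at 7.85, *Tnfsf11* at 2.59, *Il11* at 2.21 and *Tnfrsf11b* at 1.79 CPM per kb. *Tnfrsf11b* was thus near *Vegfa* in juvenile osteoblasts and near *Il11* in *c-Myc* + *R172H* osteoblasts, where the libraries of *Tnfrsf11b* and *Il11* overlapped.

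**Figure D1:**
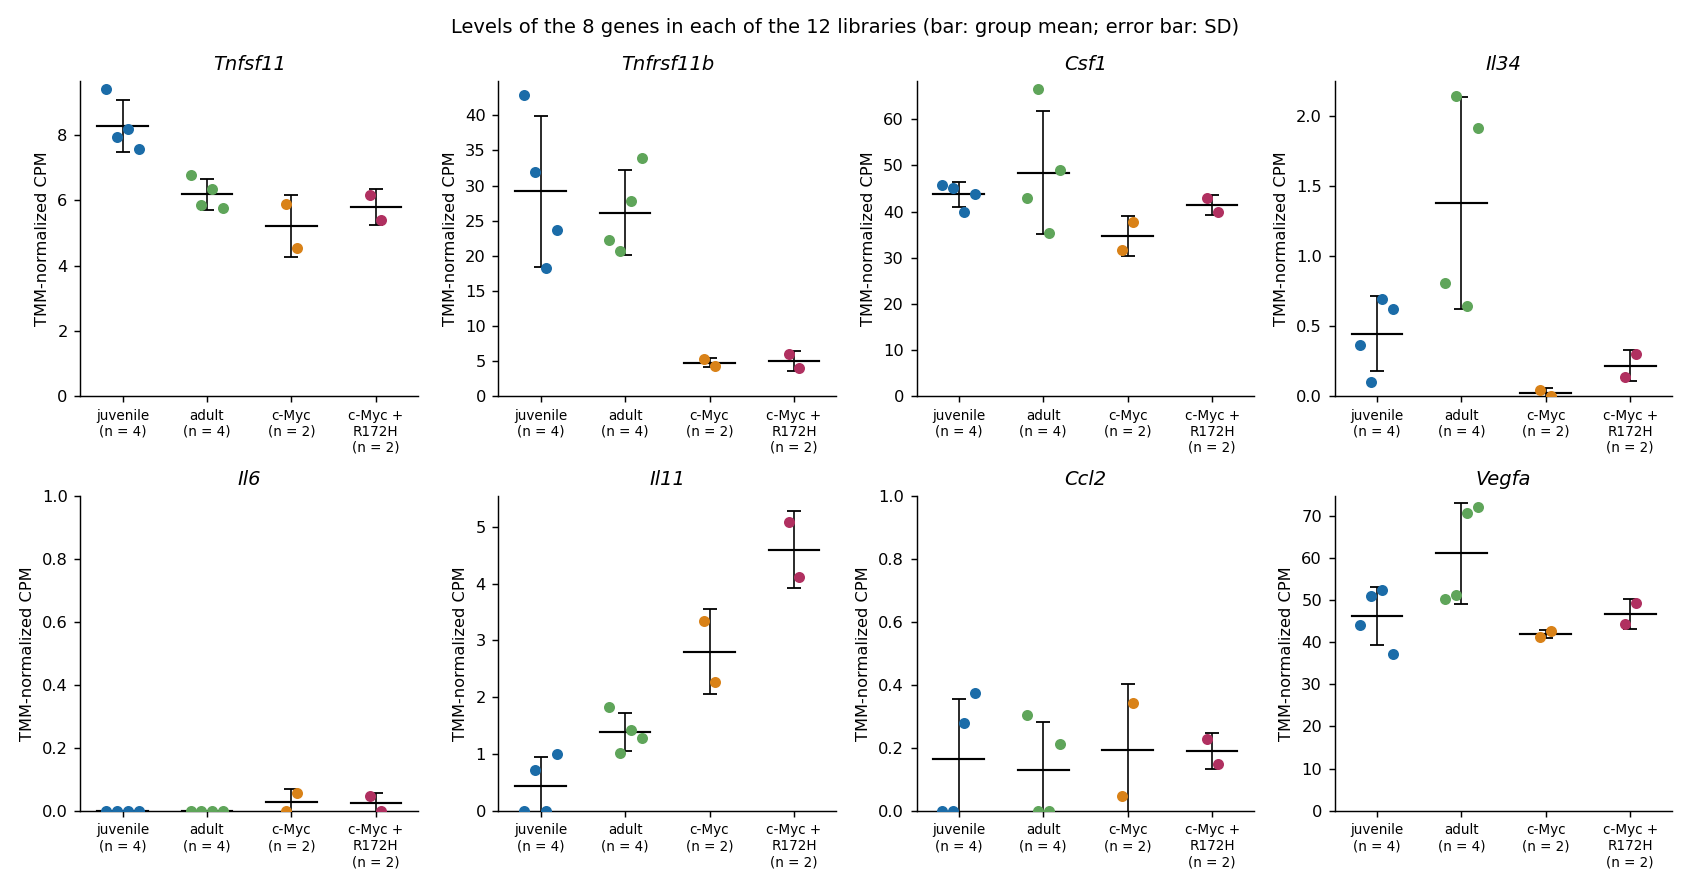
TMM-normalized CPM (y axis, a scale of its own in each panel) of the 8 genes in each library (points) of the 4 groups (x axis), with the group mean as a bar and the SD as an error bar, cut at 0. The *Tnfrsf11b* points of the induced groups lie between 4.02 and 6.04 CPM, below all juvenile and adult points, while *Il11* is highest in *c-Myc* + *R172H* osteoblasts.

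Tests were made with edgeR's quasi-likelihood test on counts, with Benjamini-Hochberg adjustment over all genes tested, and a gene was called at an adjusted p under 0.05. Between juvenile and adult osteoblasts, 0 of the 4 members with enough counts to test were called, where 5.12% of 11345 genes were called (1.89% higher and 3.23% lower in juvenile). At an unadjusted p under 0.05 there was 1, *Vegfa*, and DESeq2 called 0. With *c-Myc*, 5 members could be tested against juvenile osteoblasts, of which 1 was called higher (*Il11*) and 3 lower (*Tnfsf11*, *Tnfrsf11b*, *Csf1*), in a comparison that called 53.4% of 12588 genes (28.4% higher and 25% lower). With *c-Myc* + *R172H*, 1 was called higher (*Il11*) and 1 lower (*Tnfrsf11b*), where 56.7% of genes were called (30.4% higher and 26.3% lower). Of these members *Il11* and *Tnfrsf11b* also moved by 1 or more on the log2 scale in both comparisons, as had 34.4% and 37.5% of all genes. Between the induced groups 0 of 5 were called, where 0.469% of genes were (0.00794% higher and 0.461% lower, and 0.254% with a log2 fold change of at least 1), with 0 at an unadjusted p under 0.05 and 0 by DESeq2. DESeq2 gave *Il11* no adjusted p there, so that it could not call this gene. The majority of all genes was called in the comparisons of induced with juvenile osteoblasts, so that 4 or 2 calls among 5 genes say little about these members as a set, and the comparisons share the 4 juvenile libraries. The median log2 fold change of the 5 tested members was -0.36 with *c-Myc* and -0.07 with *c-Myc* + *R172H*, beside 0.04 and 0.08 over all genes. *Il34*, *Il6* and *Ccl2* had too few counts for any of these tests, and so had *Il11* between the ages.

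*Tnfsf11* was at 9.41, 7.95, 8.21 and 7.58 CPM in the juvenile libraries (8.28 ± 0.79, SD, n = 4) and at 6.78, 5.87, 6.34 and 5.76 CPM in the adult ones (6.19 ± 0.47). Each juvenile library was above each adult one, as for 6.17% of genes in that direction. The fitted log2 difference, juvenile minus adult, was 0.41 ± 0.26 (SE) and did not pass the test (edgeR, adjusted p = 0.422, 95% interval -0.22 to 1.05). The *c-Myc* libraries held 5.89 and 4.54 CPM and the *c-Myc* + *R172H* libraries 6.18 and 5.41 CPM, both below every juvenile library, as for 28.7% and 30.1% of genes, and overlapping the adult ones. Against juvenile osteoblasts the log2 difference was -0.69 ± 0.26 with *c-Myc* (edgeR, adjusted p = 0.0430) and -0.51 ± 0.26 with *c-Myc* + *R172H* (edgeR, adjusted p = 0.114). Only the first passed, and the difference between the induced groups was 0.18 ± 0.29 (edgeR, adjusted p = 1). The *c-Myc* call was lost without juvenile replicate 1 (edgeR, adjusted p = 0.0753), *c-Myc* replicate 1 (0.101) or *c-Myc* replicate 2 (0.316). It was also lost without a filter on low counts (0.136), in fits of 12 libraries (0.0666) or 2 groups (0.0670), and on library totals, where the difference was 0.14 (edgeR, adjusted p = 0.695). The osteoblast and osteocyte markers fell in the same comparisons, and their part in this result was not tested.

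*Tnfrsf11b*, the decoy of RANKL, showed the most negative log2 difference of the 5 tested members in both comparisons of an induced group with juvenile osteoblasts. Juvenile libraries held 42.9, 31.9, 18.2 and 23.6 CPM (29.2 ± 10.8, SD, n = 4) and adult libraries 22.2, 20.7, 27.8 and 33.9 CPM (26.1 ± 6.02), so that the ages overlapped. In *c-Myc* libraries the level was 5.21 and 4.25 CPM, and in *c-Myc* + *R172H* libraries 6.04 and 4.02 CPM. All 4 induced libraries lay below the juvenile and adult ones; against juvenile libraries alone, 28.7% of genes with *c-Myc* and 30.1% with *c-Myc* + *R172H* did so. The gene fell by 2.65 on the log2 scale with *c-Myc* (SE 0.35, edgeR, adjusted p = 3.69e-05), to 0.159 of the juvenile level. It fell by 2.54 with *c-Myc* + *R172H* (SE 0.34, edgeR, adjusted p = 4.31e-05), and the induced groups differed by 0.12 ± 0.38 (edgeR, adjusted p = 1, 95% interval -0.85 to 1.08). The age difference was 0.16 ± 0.24 (edgeR, adjusted p = 0.786). Both falls were called in 16 of 16 alternative settings. The osteoblast, chondrocyte and marrow stroma markers above were also lower in the induced groups, and their part in this result was not tested.

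Since RANKL and its decoy act against each other, their counts were also set against each other within each library, where scaling between libraries cancels. Per kb of exon, *Tnfsf11* to *Tnfrsf11b* was 0.276, 0.314, 0.568 and 0.405 in juvenile and 0.386, 0.358, 0.287 and 0.214 in adult libraries. It was 1.43 and 1.34 in *c-Myc* and 1.29 and 1.70 in *c-Myc* + *R172H* libraries. Per kb, the decoy's transcript was the more abundant one in all 8 juvenile and adult libraries and the less abundant one in all 4 induced libraries. Without exon length the ratio of counts was near 1 in induced libraries, at 1.13 and 1.07 with *c-Myc* and 1.02 and 1.35 with *c-Myc* + *R172H*. In juvenile and adult libraries it was 0.170 to 0.450. The mean log2 ratio of counts was -1.75 ± 0.46 (SD, n = 4) in juvenile, -2.05 ± 0.38 in adult, 0.14 in *c-Myc* and 0.23 in *c-Myc* + *R172H* osteoblasts. This ratio is of transcripts and was not tested.

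**Figure D2:**
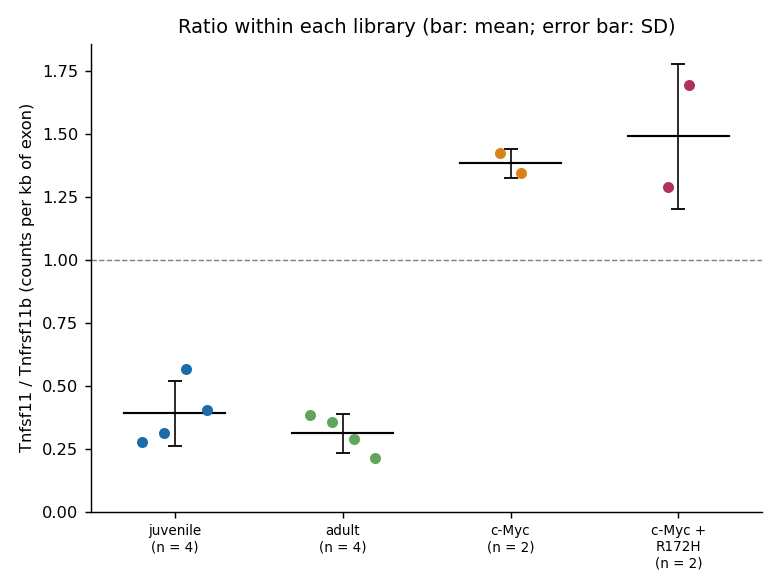
Ratio of *Tnfsf11* to *Tnfrsf11b* per kb of exon (y axis) in each library (points) of the 4 groups (x axis), with the mean as a bar, the SD as an error bar and a dashed line at 1. The 8 juvenile and adult points lie between 0.214 and 0.568 and the 4 induced points between 1.29 and 1.70.

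*Csf1* was evenly held in juvenile libraries, at 45.9, 45.2, 39.9 and 43.9 CPM (43.7 ± 2.66, SD, n = 4), and more spread in adult ones, at 43.0, 66.5, 35.3 and 48.9 CPM (48.4 ± 13.3). The ages overlapped, with a log2 difference of -0.16 ± 0.17 (edgeR, adjusted p = 0.679). In *c-Myc* libraries it was at 31.6 and 37.8 CPM, below all juvenile libraries, as for 28.7% of genes. The *c-Myc* + *R172H* libraries held 43.0 and 40.0 CPM, within the juvenile range. The gene fell by 0.36 on the log2 scale with *c-Myc* (SE 0.13, edgeR, adjusted p = 0.0300), and with *c-Myc* + *R172H* the difference from juvenile was -0.07 ± 0.12 (edgeR, adjusted p = 0.655). The difference between the induced groups, which would show whether they differ, was 0.29 ± 0.14 and did not pass (edgeR, adjusted p = 1, unadjusted p = 0.0654). The *c-Myc* call was lost without juvenile replicate 1 (edgeR, adjusted p = 0.0533), juvenile replicate 2 (0.0527) or *c-Myc* replicate 1 (0.324, with a log2 difference of -0.23). It was also lost without a filter (0.121) and in a fit of 12 libraries (0.158), and on library totals *Csf1* was called higher with *c-Myc* (0.46, edgeR, adjusted p = 0.0272).

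*Il34*, the other ligand of the CSF1 receptor, was near the detection limit, at 4, 1, 5 and 5 counts in juvenile, 8, 19, 5 and 18 in adult, 1 and 0 in *c-Myc* and 3 and 6 in *c-Myc* + *R172H* libraries. By CPM both *c-Myc* libraries were below each juvenile one, as for 28.7% of the genes tested, though the latter held 5 counts at most. A fit of all 12 libraries, the only one of the filtered fits to test it, gave -3.70 ± 1.5 with *c-Myc* (edgeR, adjusted p = 0.0496). Adult replicates 2 and 4 were high and the other adult libraries lay near the juvenile ones. Antisense genes *Gm15894* and *Gm15895* overlap *Il34* exons on the opposite strand, and the strand setting of the counting was not given, so that reads of these genes cannot be told apart.

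Of the gp130 cytokines, *Il11* was the member that rose. It had 0, 7, 0 and 8 counts in juvenile libraries, 18, 9, 11 and 12 in adult, 73 and 40 in *c-Myc* and 111 and 83 in *c-Myc* + *R172H* libraries. These gave 0.43 ± 0.51 CPM (SD, n = 4) in juvenile, 1.39 ± 0.34 in adult, 2.80 in *c-Myc* and 4.6 in *c-Myc* + *R172H* osteoblasts, and no neighbouring groups in this order overlapped. Juvenile libraries lay below all adult ones for 6.75% of the genes tested between the ages, and no such share was computed for adult against *c-Myc*. The induced libraries lay above all juvenile ones for 35.7% of genes with *c-Myc* and 36.6% with *c-Myc* + *R172H*, and *c-Myc* + *R172H* lay above *c-Myc* for 17.5% and below for 27.5%. Against juvenile libraries the log2 difference was 2.68 ± 0.82 with *c-Myc* (edgeR, adjusted p = 0.0148, 95% interval 0.58 to 4.79). With *c-Myc* + *R172H* it was 3.42 ± 0.80 (edgeR, adjusted p = 0.00294, interval 1.36 to 5.49). With a library left out, the difference ran from 2.21 (without juvenile replicate 1) to 3.42 (without juvenile replicate 4) with *c-Myc* and from 2.95 to 4.16 (without the same replicates) with *c-Myc* + *R172H*. Juvenile counts were few, and the 0.74 ± 0.82 between the induced groups did not pass (edgeR, adjusted p = 1). The *c-Myc* call was lost without *c-Myc* replicate 1 (edgeR, adjusted p = 0.115) and in a fit of these 2 groups alone (edgeR, adjusted p = 0.0562). Between the ages the gene was below the filter of the test, and a fit of all 12 libraries gave -1.68 ± 0.77, juvenile minus adult (edgeR, adjusted p = 0.196). No juvenile library reached the filter in the main comparisons with induced groups either. *Il11* was thus tested there only through the induced libraries, where it was high.

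*Il6* was not detected in juvenile or adult osteoblasts, where 0 counts in a library allow up to 0.274 to 0.417 CPM, and had 1 count in *c-Myc* replicate 2 and 1 in *c-Myc* + *R172H* replicate 1. No difference was detectable at this depth. *Ccl2* likewise had 0, 0, 2 and 3 counts in juvenile, 3, 0, 0 and 2 in adult, 1 and 6 in *c-Myc* and 5 and 3 in *c-Myc* + *R172H* libraries. Its group means were 0.129 to 0.193 CPM and overlapped throughout. The annotated gene *Gm17268* spans all *Ccl2* exons on the opposite strand, so that even these few counts are uncertain.

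*Vegfa*, the signal to blood vessels, was at 44.1, 51.0, 52.3 and 37.3 CPM in juvenile libraries (46.2 ± 6.93, SD, n = 4) and at 50.2, 51.3, 70.6 and 72.1 CPM in adult ones (61.0 ± 11.9). Adult replicates 3 and 4 were high and the other 2 lay within the juvenile range. The log2 difference, juvenile minus adult, was -0.41 ± 0.15 and did not pass the adjustment (edgeR, adjusted p = 0.131, unadjusted p = 0.0158). The *c-Myc* libraries held 41.2 and 42.5 CPM and the *c-Myc* + *R172H* libraries 44.2 and 49.3 CPM, all within the juvenile range. Against juvenile osteoblasts the log2 difference was -0.16 ± 0.14 with *c-Myc* (edgeR, adjusted p = 0.361, 95% interval -0.53 to 0.21). With *c-Myc* + *R172H* it was 0.03 ± 0.14 (edgeR, adjusted p = 0.888, interval -0.34 to 0.39).

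**Figure D3:**
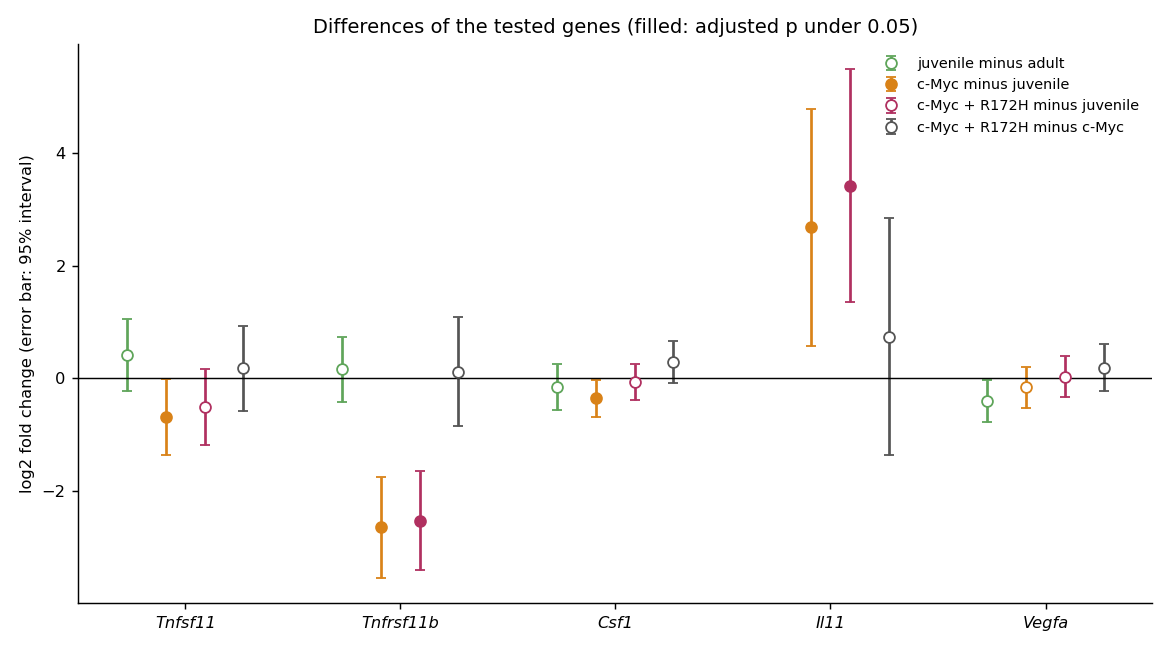
Fitted log2 fold changes (y axis) of the 5 members that could be tested (x axis) in the 4 comparisons (colours), with 95% intervals; filled points had an adjusted p under 0.05 and *Il11* was not tested between the ages. *Tnfrsf11b* lies at -2.65 and -2.54 and *Il11* at 2.68 and 3.42 in the induced groups against juvenile, while *Tnfsf11*, *Csf1* and *Vegfa* lie within 0.7 of 0 in all comparisons.

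Scaling mattered for the small differences. Without a composition factor (library totals alone), the median of all genes moved by 0.87 on the log2 scale with *c-Myc* and by 1.12 with *c-Myc* + *R172H* against juvenile, and the all-gene calls with *c-Myc* went from 3577 higher and 3149 lower to 6803 higher and 1115 lower. With *c-Myc* + *R172H* they went from 3832 higher and 3311 lower to 7668 and 1169, and between the ages from 214 higher and 367 lower in juvenile to 53 and 793, with a median of -0.24. On that scale *Tnfsf11* and *Csf1* turned positive in both induced groups (0.14 and 0.46 with *c-Myc*, 0.53 and 0.97 with *c-Myc* + *R172H*), and 3 members were called higher (*Csf1*, *Il11* and *Vegfa*) and 1 lower in each induced group. Relative to the median of all genes, *Tnfsf11* was at -0.73 and *Csf1* at -0.41 with *c-Myc*. *Tnfrsf11b* stayed lower (-1.85 and -1.52, both called) and *Il11* higher (3.53 and 4.47, both called) on the scale of library totals itself.

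The 12 receptors and co-receptors of the 8 signals were also read in the osteoblasts. RANK (*Tnfrsf11a*, 0 to 12 counts per library), the CCL2 receptor *Ccr2* (0 in every library) and the VEGF receptors *Flt1* (0 to 10) and *Kdr* (0 to 5) were too low to test, and the CSF1 receptor *Csf1r* had a mean of 0.326 to 1.76 CPM in the 4 groups. Among the 7 tested between the ages, *Lgr4*, another receptor of RANKL, was called higher in juvenile osteoblasts, at 66.5 to 82.2 CPM beside 42.3 to 55.5 in adult (log2 difference 0.57 ± 0.13, edgeR, adjusted p = 0.0164), a call lost on library totals (0.34, edgeR, adjusted p = 0.248). With *c-Myc*, 2 of 8 were called higher (*Il11ra1*, *Nrp1*) and 4 lower (*Il6st*, *Lgr4*, *Nrp2*, *Ptprz1*), and with *c-Myc* + *R172H* these 2 were again called higher and these 4 lower. Of all genes, 28.4% were called higher and 25% lower with *c-Myc*, and 30.4% and 26.3% with *c-Myc* + *R172H*. Between the ages 5.12% of all genes were called. These receptor counts therefore say little about the receptors as a set. The IL-11 receptor subunit *Il11ra1* was at 1.24 to 2.50 CPM in juvenile, 6.98 to 7.76 in *c-Myc* and 9.13 to 9.25 in *c-Myc* + *R172H* libraries (log2 difference 1.93 ± 0.31, edgeR, adjusted p = 0.000218, and 2.27 ± 0.31, edgeR, adjusted p = 4.68e-05). A near-identical copy, *Il11ra2*, had 0 counts in every library, so that reads shared by the copies may not be in these counts. *Il6st*, the shared gp130 chain, fell from 153 to 175 CPM in juvenile to 79.3 to 92.4 in *c-Myc* and 77.3 to 84.7 in *c-Myc* + *R172H* libraries (log2 -0.97 ± 0.10 and -1.02 ± 0.11). *Il6ra* was not called (0.44 ± 0.77 and 0.41 ± 0.77).

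The VEGF co-receptors moved in opposite directions. *Nrp1* rose by 1.41 ± 0.17 with *c-Myc* and 1.63 ± 0.17 with *c-Myc* + *R172H*, from 20.6 to 35.6 CPM in juvenile to 78.5 to 89.9 and 96.1 CPM. *Nrp2*, the more abundant in juvenile osteoblasts by CPM (1042 to 1127), fell by 1.03 and by 1.39 on the log2 scale. *Ptprz1*, a receptor of IL-34, fell by 1.69 and by 2.42, and *Lgr4* by 0.62 and by 0.85. On the scale of library totals *Lgr4* (0.20 and 0.18) turned positive in both comparisons and *Il6st* (-0.14 and 0.02) turned positive with *c-Myc* + *R172H*. The calls of both genes were then lost in both comparisons and that of *Nrp2* with *c-Myc* (-0.19, edgeR, adjusted p = 0.198), which left 2 receptors called higher and 1 lower with *c-Myc* and 2 and 2 with *c-Myc* + *R172H*. Between the induced groups 0 of 8 receptors were called by edgeR, with 2 at an unadjusted p under 0.05 and 1 called by DESeq2.

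**Figure D4:**
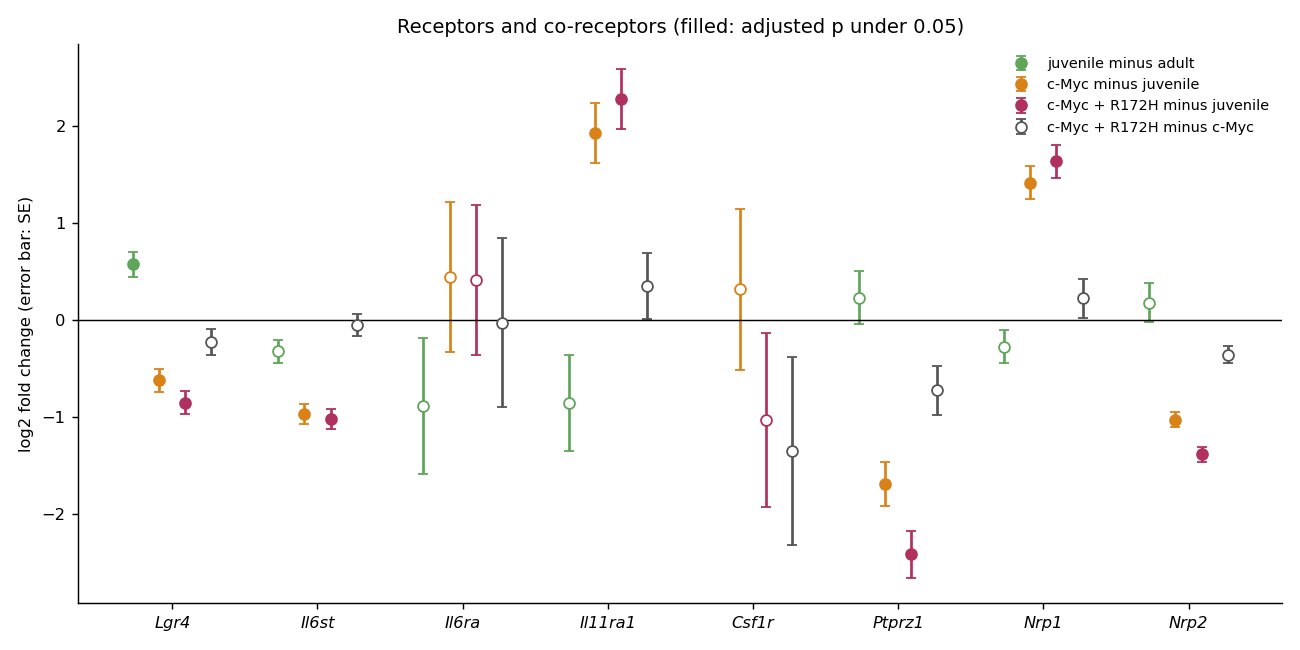
Fitted log2 fold changes with their SE (y axis) for the 8 receptors and co-receptors that could be tested (x axis) in the 4 comparisons (colours); filled points had an adjusted p under 0.05 and *Csf1r* was not tested between the ages. *Il11ra1* and *Nrp1* lie above 0 and *Lgr4*, *Il6st*, *Ptprz1* and *Nrp2* below 0 in both comparisons of an induced group with juvenile.

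The wider pathways were read from lists of genes, whose counts stand beside the shares of all genes called. With *c-Myc* 28.4% of all genes were called higher and 25% lower, and with *c-Myc* + *R172H* 30.4% and 26.3%. Between the ages the shares were 1.89% and 3.23%, and between the induced groups 0.00794% and 0.461%. Of 11 genes of the IL-6 family other than the members, 9 could be tested, and 1 was called higher and 7 lower with *c-Myc*, with a median log2 fold change of -1.04 beside 0.04 over all genes. With *c-Myc* + *R172H* 0 were higher and 7 lower, with a median of -0.95 beside 0.08. *Lif*, a gp130 cytokine, rose with *c-Myc* (2.48 to 5.91 CPM, log2 1.23 ± 0.41, edgeR, adjusted p = 0.0222), and with *c-Myc* + *R172H* its mean was 2.39 CPM. *Osmr*, the oncostatin M receptor, fell from 14.4 CPM to 4.03 and 3.96. *Clcf1*, another cytokine of the family, fell from 4.99 CPM to 1.12 and 0.60. On library totals 2 were higher and 4 lower in each comparison. Between the ages *Jak2*, a kinase of this pathway, was called higher in juvenile osteoblasts (72.3 beside 49.2 CPM, edgeR, adjusted p = 0.0381), a call lost on library totals, and 8 were not called.

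Among 22 other osteoclast-regulating signals, 15 could be tested with *c-Myc*, where 1 was called higher and 11 lower (median -1.05), and with *c-Myc* + *R172H* again 1 was higher and 11 lower (median -0.97). Over all genes the medians were 0.04 and 0.08, with 28.4% and 30.4% called higher and 25% and 26.3% lower. The one that rose was *Ptges*, which makes prostaglandin E2 (1.40 CPM to 3.78 and 4.74). The steepest falls were those of *Wnt4*, a WNT ligand (51.2 CPM to 4.16 and 2.74), and *Postn*, a matrix protein (126 CPM to 30.3 and 14.1). On library totals 2 were higher and 3 lower with *c-Myc* and 4 and 4 with *c-Myc* + *R172H*. Of 14 tested between the ages, *Ptgs2* (log2 1.06 ± 0.26), which makes the precursor of prostaglandins, and *Tgfb1* (0.55 ± 0.12) were called higher in juvenile osteoblasts and *Efnb2* (-1.32 ± 0.20), an ephrin ligand, lower. *Ptgs2* and *Tgfb1* were not called on library totals.

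Among 25 further vessel signals, 22 could be tested, of which 2 were called higher and 13 lower with *c-Myc* (median -1.58), and 3 higher and 13 lower with *c-Myc* + *R172H* (median -1.80). Over all genes the medians were 0.04 and 0.08, with 28.4% and 30.4% called higher and 25% and 26.3% lower. *Vegfb*, a relative of *Vegfa*, rose from 2.66 CPM to 13.6 and 13.9 (log2 2.35 ± 0.38 and 2.41 ± 0.38), and *Apln*, a peptide that acts on endothelial cells, from 1.27 CPM to 7.03 and 7.89. The third gene called higher with *c-Myc* + *R172H* was *Angptl2* (log2 0.53), named after its values were seen. *Thbs2*, an inhibitor of vessel growth, fell from 151 CPM to 17.7 and 8.78, and *Fgf1*, a growth factor, from 3.22 CPM to 0.36 and 0.19. The genes that fell thus included an inhibitor as well as a growth factor. The endothelial marker *Egfl7* rose in the same comparisons, and its part was not tested. On library totals 4 were higher and 10 lower with *c-Myc* and 6 and 10 with *c-Myc* + *R172H*. The list also held 2 genes called between the induced groups, *Thbs1* (103 to 47.1 CPM, log2 -1.09 ± 0.16, edgeR, adjusted p = 0.0103) and *Thbs2* (-0.98 ± 0.17, edgeR, adjusted p = 0.0301), neither of them called on library totals. Between the ages *Thbs2* (0.82 ± 0.15), *Pdgfc* (0.70 ± 0.18) and *Slit3* (0.53, named after its values were seen) were called higher in juvenile osteoblasts, and *Thbs1* (-0.84 ± 0.15) and *Angptl2* (-1.04 ± 0.25) lower. On library totals the calls of *Pdgfc* and *Slit3* were lost.

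*Vegfa* is a target of the hypoxia pathway, of which 17 of 19 genes could be tested. Between the ages 0 were called higher in juvenile osteoblasts and 4 lower (median -0.33), among them *Slc2a1*, a glucose transporter (16 beside 52.5 CPM, edgeR, adjusted p = 0.0145), and *Bnip3*, a mitophagy gene (5.01 beside 16.8 CPM, edgeR, adjusted p = 0.0423). Of all genes 1.89% were called higher and 3.23% lower, with a median of 0.00093. *Vegfa* had the same sign as these 4 genes without passing the test. The chondrocyte markers above were higher in adult than in juvenile libraries, and their part in these age differences was not tested. With *c-Myc* 6 were called higher and 7 lower (median -0.16), and with *c-Myc* + *R172H* likewise 6 and 7 (median -0.18). Over all genes the medians were 0.04 and 0.08, with 28.4% and 30.4% called higher and 25% and 26.3% lower. *Ldha*, a glycolytic enzyme, rose from 193 CPM to 572 and 557, and *Pgk1*, another, from 22.4 CPM to 52.2 and 51.5. *P4ha1*, which modifies collagen, fell from 324 CPM to 83.5 and 56.2. *Hif1a*, the pathway's regulator, was at 85.0 CPM in juvenile, 40.4 in *c-Myc* and 36.1 in *c-Myc* + *R172H* libraries. Its log2 difference from juvenile was -1.10 ± 0.13 (edgeR, adjusted p = 1.27e-05) and -1.23 (edgeR, adjusted p = 4.49e-06). On library totals 10 were higher and 1 lower in each. The *Hif1a* call was then lost with *c-Myc* (-0.27, edgeR, adjusted p = 0.163) and with *c-Myc* + *R172H* (-0.18, edgeR, adjusted p = 0.318).

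**Figure D5:**
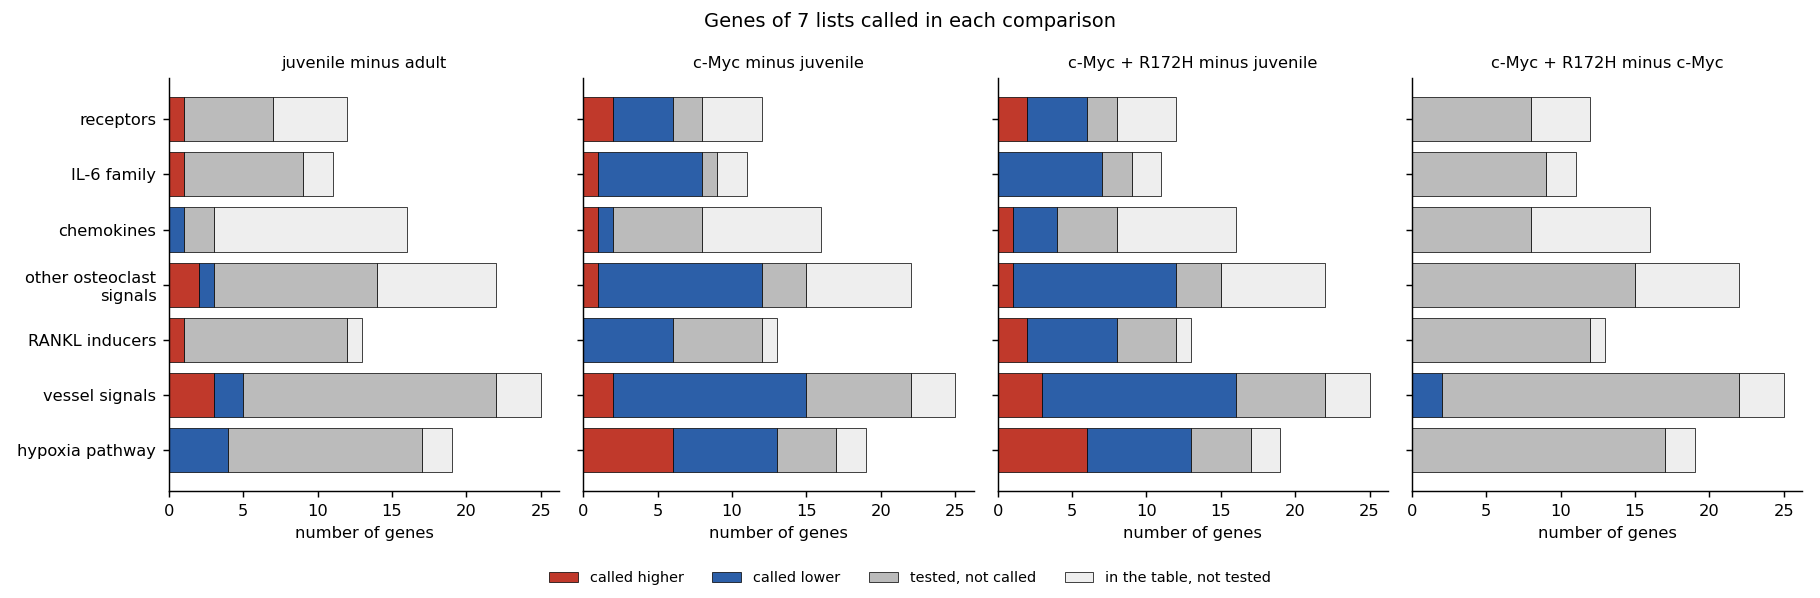
Number of genes (x axis) of 7 lists (y axis) that were called higher, called lower, tested without a call or not tested in the 4 comparisons (panels). With *c-Myc*, 11 of 15 tested osteoclast signals and 13 of 22 tested vessel signals are lower, beside 25% of all genes. Between the induced groups only the vessel list holds calls, 2 genes lower, beside 0.461% of all genes.

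Genes whose 4 group means followed those of a member most closely were sought by the root mean square distance of centred log2(CPM + 1) over the 4 groups. *Pygo1* (0.059) and *Magel2* (0.078) were nearest to *Tnfrsf11b*, whose own means span 2.33 on this scale. *Srd5a1* (0.082) and *Mettl8* (0.11) were nearest to *Il11*, which spans 2.04. *Foxn3* (0.0035) and *Carhsp1* (0.017) were nearest to *Tnfsf11*, *Stx4a* (0.014) and *Exo5* (0.024) to *Csf1*, and *Tmem147os* (0.018) and *Dnajc10* (0.027) to *Vegfa*, each spanning under 0.6. With 4 group means these are descriptions of likeness.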

How the data were processed

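Reads of a directional kit were trimmed (cutadapt 4.6), mapped to mm10 (STAR 2.7.11a) and counted per gene (HTSeq 2.0.5) by the authors, who deposited the raw counts of 12 libraries without normalization. Alignment and counting name different GENCODE releases, and the strand setting of the counting was not given. Groups followed the titles, and the labels do not say that induced replicates are separate animals, so that p-values measure the spread between these libraries.

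Counts were tested in R 4.3.3 with edgeR 4.0.16 (TMM, default expression filter, robust quasi-likelihood fit, Benjamini-Hochberg adjustment, threshold 0.05). The age fit held juvenile and adult libraries. The other comparisons shared a fit without the adult libraries. The SE was approximated from the log2 fold change and the root of its F statistic, and 95% intervals use the residual degrees of freedom (6 and 5). CPM were scaled by TMM over the 12 libraries, and exon lengths, from GENCODE on GRCm38, served for levels per kb. A symbol on 2 rows, *Aldoa*, was read from the row with more counts. Alternatives were RLE, upper-quartile and library-total scaling, leaving out *Col1a1*, *Col1a2* and *Gm26917*, other filters, DESeq2 1.42.0, other libraries in the fit, a replicate block, a fold threshold and each library left out. The other scalings of lists and receptors were added after seeing the data. Scripts for these fits were first checked on simulated counts.

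Named were the members, their receptors and, in each list and comparison, up to 2 called genes that rose most and 2 that fell most at a mean of at least 10 normalized counts. From each marker list up to 3 genes of highest level could be named. Nearest patterns were sought for members with a mean of at least 10 counts. Members and lists were chosen with earlier results of these data known. Promoter windows are from RefSeq, with 5 of 8 members matched. Counts of each pair of replicates differed by more than sampling noise (chi-square per degree of freedom 5.45 to 136). The limits given for counts of 0 cover counting error only, while the 95% intervals include the spread between libraries.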

Additional observations from a re-analysis of the deposited data

How the results depend on the processing

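Of the called members, *Tnfrsf11b* kept its direction and call in both induced comparisons in all 16 alternatives, and *Il11* kept its direction in 15 of 15 with each and its call in 13 and 15. *Tnfsf11* was called lower with *c-Myc* in 9 of 16 alternatives (adjusted p 0.0142 to 0.695) and *Csf1* in 10 of 16 (0.00499 to 0.324). With library totals the log2 differences with *c-Myc* were 0.14 for *Tnfsf11*, 0.46 for *Csf1* and 0.67 for *Vegfa*, those with *c-Myc* + *R172H* were 0.53 and 0.97 for *Tnfsf11* and *Csf1*, and *Tnfrsf11b* between the ages was at -0.068. This follows from the median of all genes, which moves with that scaling. *Vegfa* with *c-Myc* + *R172H* lay at -0.0070 under RLE, -0.035 under upper-quartile factors, -0.0070 under DESeq2, -0.019 in a fit of 2 groups, and from -0.087 to 0.083 with a library left out. With a library left out, *Tnfrsf11b* between the ages ran from -0.090 to 0.33 (lowest without juvenile replicate 1) and *Csf1* from -0.28 to 0.039 (highest without adult replicate 2). Between the induced groups *Tnfsf11* ran from -0.020 to 0.35 and *Tnfrsf11b* from -0.23 to 0.34. The cause was not tested.

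Members called between the ages were 1 (*Vegfa*, adjusted p = 0.0355) with library totals. With *c-Myc* 2 were called without a filter, in a fit of 2 groups or with a fold threshold, and 1 to 4 with a library left out (1 without *c-Myc* replicate 1 and 2 without juvenile replicate 1). With *c-Myc* + *R172H* 4 were called with library totals and 1 under at least 10 counts in every library, where *Il11* could not be tested. Genes called between the ages were 977 without a filter, 1000 with DESeq2, 1094 in a fit of 12 libraries and 284 to 885 with a library left out (333 at most without juvenile replicate 1, 2 or 4 or adult replicate 1 or 4, and most without adult replicate 2). With a fold threshold 4330 and 4724 genes were called in the induced comparisons with juvenile and 32 between the induced groups. There, 12 were called with library totals, 222 without a filter, 208 with DESeq2, 22 in a fit of 12 libraries, 629 in a fit of 2 groups and 8 to 55 with a library left out (55 without *c-Myc* replicate 1, and 13 at most without any other). A lone library was then assumed to vary like the others.

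The replicate numbers, from titles (the library names number the adult libraries otherwise), did not pair the libraries: same-numbered juvenile and adult libraries correlated at -0.05 to 0.04, and 1 of 8 libraries correlated best with its own number. The induced libraries gave a single value, 0.14. With 2 libraries in each group, both same-numbered pairs have the same correlation by construction, so that pairing cannot be judged there. With the replicate block 434 genes were called between the ages, 7684 with *c-Myc*, 7998 with *c-Myc* + *R172H* and 326 between the induced groups, *Tnfsf11* passed with *c-Myc* + *R172H* (-0.58, adjusted p = 0.0485), *Vegfa* was there at -0.025, and no other call of a member changed. Depth limits *Il6*, *Ccl2*, *Il34* and, in juvenile libraries, *Il11*. In the main fits *Il11* passed the filter only through the induced libraries, where it was high.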

Other observations

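Of 16 chemokines other than *Ccl2*, 8 could be tested against juvenile osteoblasts and 3 between the ages. *Cxcl12*, the most abundant of the named ones and a marrow retention signal, was at 169 CPM in juvenile, 277 in adult, 86.2 in *c-Myc* and 55.4 in *c-Myc* + *R172H* osteoblasts, and was called lower in both induced groups (edgeR, adjusted p = 0.0245 and 0.00235). *Cxcl14* was lower in juvenile than in adult osteoblasts (7.66 beside 33.3 CPM, log2 -2.14 ± 0.27, edgeR, adjusted p = 0.000404) and was called lower again with *c-Myc* + *R172H* (1.79 CPM). *Cxcl9* was called lower with *c-Myc* + *R172H* from a mean of 1.57 CPM, with overlapping groups. *Ccl3* was called higher in both induced groups, and was named after its values were seen: it had 0 counts in all juvenile and adult libraries and 5 to 14 counts in the induced ones. It passed the filter only through the induced libraries, so that a call could only be higher. The summed myeloid markers were at 1.92 to 5.42 CPM in juvenile, 9.72 to 13.9 in adult, 11.1 to 13.6 in *c-Myc* and 8.84 to 9.80 in *c-Myc* + *R172H* libraries, and *Lyz2* at 0.34, 6.38, 6.16 and 2.48 CPM, and their part in the *Ccl3* result was not tested. On library totals *Cxcl12* was not called with either, and *Cxcl9* was not called with *c-Myc* + *R172H* (edgeR, adjusted p = 0.0706). *Cxcl12* is also one of the marrow stroma markers.

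Of 13 genes that carry inducing signals to *Tnfsf11*, 12 could be tested, and 0 were called higher and 6 lower with *c-Myc*, with a median of -0.80 beside 0.04 over all genes. Of all genes 28.4% were called higher and 25% lower there. The list shares *Runx2* and *Pth1r* with the osteoblast markers. *Vdr*, the vitamin D receptor, fell from 95.4 CPM in juvenile to 34.9 in *c-Myc* and 25.0 in *c-Myc* + *R172H* osteoblasts (log2 -1.48 ± 0.12 and -1.93 ± 0.13), and *Il1r1*, the interleukin-1 receptor, from 9.14 CPM to 3.31 and 2.37. With *c-Myc* + *R172H*, *Creb1* (0.49 ± 0.17) and *Bmpr1a* (0.39 ± 0.13) were called higher and 6 lower, and on library totals 5 were higher and 1 lower with *c-Myc* and 6 and 1 with *c-Myc* + *R172H*. The *Il1r1* calls were lost on that scale (edgeR, adjusted p = 0.158 with *c-Myc* and 0.0591 with *c-Myc* + *R172H*). Between the ages *Vdr* was called higher in juvenile osteoblasts (0.56 ± 0.15, edgeR, adjusted p = 0.0452), a call lost on library totals. Between the induced groups 0 of the 12 were called by edgeR, with 2 at an unadjusted p under 0.05 and 0 by DESeq2.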
